A study of Mus musculus with 2 samples.

Results

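Among the adipose tissue macrophages (ATMs) of epididymal fat, 273 cells carried at the same time many transcripts of *Lyz1*, which encodes a lysozyme, and transcripts of *Folr2*, which encodes folate receptor beta. They were chosen by measured values, at least 10 unique molecular identifiers (UMIs, each standing for 1 captured RNA molecule) of *Lyz1* and at least 2 of *Folr2* in a cell, and are called Lyz1-high Folr2+ ATMs here. The control diet (CD) library held 227 of them and the high-fat diet (HFD) library 46, out of 2364 and 2021 cells kept after filtering and out of 7622 cell barcodes in all. Cells were kept when they had 200 to 3500 detected genes and at most 10% of UMIs from mitochondrial genes.

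Both libraries came from male C57/BL6 mice aged 8 to 12 weeks, sorted as CD45+Lin-Ly6Clow/-F4/80+ cells, in which Lin includes TCRb, SiglecF and Ly6G. CD mice were labelled unchallenged and stayed on control diet, and HFD mice were fed the high-fat diet overnight. Each library pooled the cells of 3 mice, so there was 1 library per diet, mouse and library cannot be told apart, and no difference between the diets was tested. The CD library held 15003119 UMIs and the HFD library 9164686, and 14 barcodes occurred in both, 2 of which were Lyz1-high Folr2+ ATMs in 1 library and none in both. All intervals below are 95% intervals for counting error alone.

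Fat tissue holds macrophages that settled early and renew themselves in place, and macrophages that derive from circulating monocytes. The resident cells lie along vessels, take up debris and proteins from the tissue fluid, and are known by *Lyve1*, *Timd4*, *Cd163*, *Folr2* and the complement C1q genes. Monocyte-derived cells are known by the chemokine receptor *Ccr2* and, in this tissue, by *Lyz1*, *Ear2* and *Fn1*. Cells with both *Lyz1* and *Folr2* therefore combine a gene of each kind, and they were set beside the cells of the same library that had only 1 of the 2 genes: Lyz1-high Folr2-0 ATMs, with at least 10 *Lyz1* UMIs and no *Folr2* UMI (190 CD and 513 HFD cells), and Lyz1-0 Folr2+ ATMs, with no *Lyz1* UMI and at least 2 *Folr2* UMIs (651 CD and 172 HFD cells).

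*Lyz1* (ENSMUSG00000069515) lies on the minus strand of chromosome 10 at 117287797 to 117292868 and *Folr2* (ENSMUSG00000032725) on the minus strand of chromosome 7 at 101839988 to 101857194, in GRCm38, the same assembly as mm10. *Lyz1* has a near-identical neighbour, *Lyz2*, at 117277331 to 117282321 on the same chromosome, so that reads of the lysozymes could be exchanged or lost in counting. The 250 bases before the RefSeq start of each rule gene are shown because these genes define the cells. Capitals mark AGGAAG or its reverse complement CTTCCT, the core that PU.1 and other ETS factors of macrophages bind. The Lyz1 window is chr10:117292869-117293118 and the Folr2 window chr7:101857191-101857440, both in GRCm38.p6 and read on the minus strand.
Lyz1: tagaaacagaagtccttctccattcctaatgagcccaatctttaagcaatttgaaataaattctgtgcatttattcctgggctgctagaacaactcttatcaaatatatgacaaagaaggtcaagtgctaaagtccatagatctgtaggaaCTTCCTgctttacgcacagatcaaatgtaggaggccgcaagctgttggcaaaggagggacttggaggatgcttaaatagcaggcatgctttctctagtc
Folr2: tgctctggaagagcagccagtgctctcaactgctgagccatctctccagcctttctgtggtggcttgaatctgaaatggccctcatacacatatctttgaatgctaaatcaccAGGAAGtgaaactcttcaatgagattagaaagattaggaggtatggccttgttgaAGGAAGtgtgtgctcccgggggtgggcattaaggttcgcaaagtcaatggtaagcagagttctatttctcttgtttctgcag
The Lyz1 window held 1 such match and this Folr2 window 2. The window of another RefSeq start of *Folr2*, chr7:101845332-101845581, held 1 and is not shown. Of all 32536 mouse promoter windows of that length, 9615 (29.6%) held at least 1, so a match is common and describes the letters alone.

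The label transitional was checked against the other genes of these cells. By their summed levels on a linear scale, Lyz1-high Folr2+ ATMs lay between the Lyz1-high Folr2-0 and the Lyz1-0 Folr2+ ATMs, closer to the former in CD. In HFD the side depended on the genes used and on the settings, as given with the places below. Cell by cell, though, they spread from one kind to the other, and the data hold no measure of time or fate. They are therefore named by the rule and not as a stage.

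**Figure D1:**
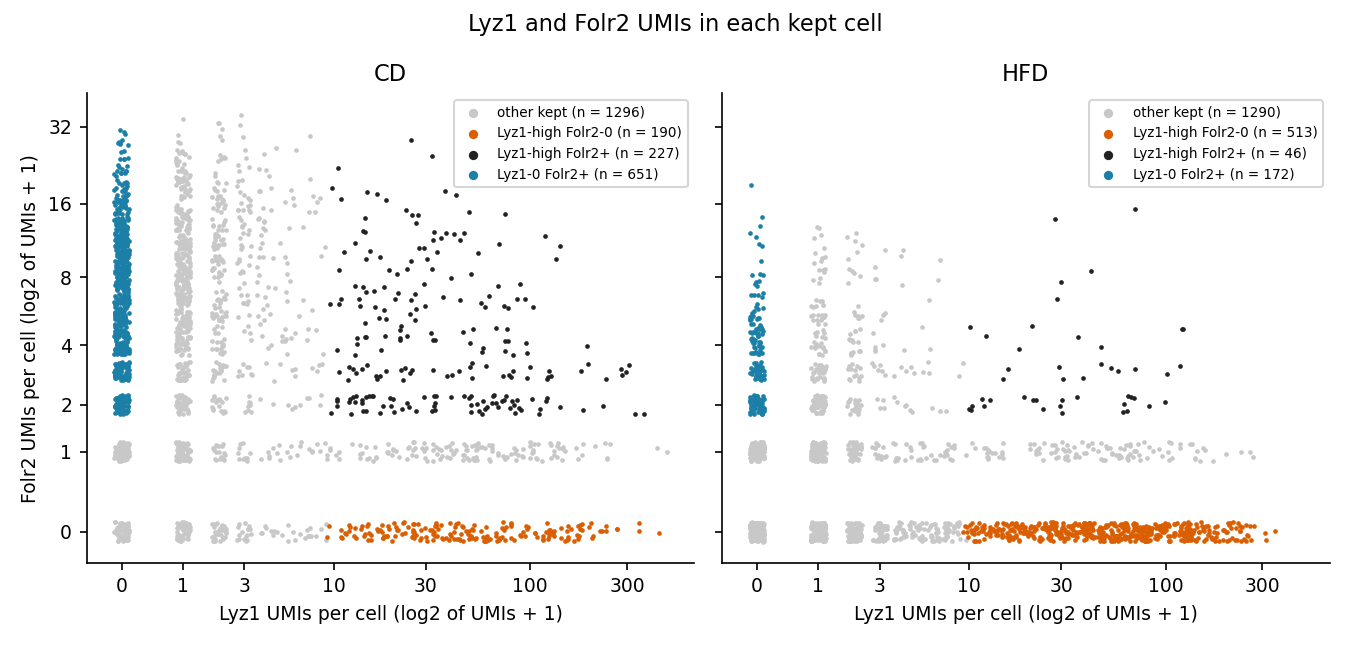
Each point is 1 kept cell, with Lyz1 UMIs on the x axis and Folr2 UMIs on the y axis (both as log2 of UMIs + 1, with points spread slightly so that they do not overlie), for CD on the left and HFD on the right. The 227 CD and 46 HFD Lyz1-high Folr2+ ATMs lie at the upper right, without a gap to the cells below or to the left of them, and those of HFD lie mostly at low Folr2 UMIs.

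In CD, *Folr2* UMIs per Lyz1-high Folr2+ ATM ranged from 2 to 28 with a median of 4, and 72 of 227 cells had the minimum of 2. In HFD they ranged from 2 to 15 with a median of 3, and 22 of 46 cells had 2. *Lyz1* UMIs ranged from 10 to 359 with a median of 32 in CD and from 10 to 124 with a median of 33 in HFD. So the *Lyz1* threshold was passed by a wide margin in most cells, while the *Folr2* threshold was only just met in many.

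These cells made up 9.60% (95% exact Clopper-Pearson interval 8.44 to 10.9) of the kept CD cells and 2.28% (1.67 to 3.02) of the kept HFD cells. Of all Lyz1-high cells, 227 of 555 in CD (40.9%, 36.8 to 45.1) and 46 of 672 in HFD (6.85%, 5.05 to 9.03) had at least 2 *Folr2* UMIs. The share was thus lower in the HFD library by either denominator. The number of Lyz1-high cells themselves was not lower in HFD.

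The size of this gap varied with the limits, the cells and the gene used. When 2000 UMIs were drawn from every cell (301 CD and 774 HFD cells had fewer and were dropped), with limits of 5 *Lyz1* UMIs and 1 *Folr2* UMI, 7.13% of CD and 5.45% of HFD cells met the rule, and 31.1% and 10.99% of the Lyz1-high cells did. The lower limits without thinning gave 18.8% and 10.0% of kept and 68.0% and 25.8% of Lyz1-high cells. Limits of 20 and 4 UMIs gave 3.21% and 0.495% of kept and 17.6% and 1.80% of Lyz1-high cells. Without cells holding a UMI of other cell types' markers, the shares were 5.61% and 1.20% of kept and 15.9% and 3.15% of Lyz1-high cells. These were the endothelial, B, T and NK, neutrophil, eosinophil, mast, stromal, mesothelial and erythroid markers, not the adipocyte and peritoneal macrophage ones. Since 1 UMI drops a cell, this filter takes out deep cells more easily. Of its genes, *Ighm* and *Mmp9* moved with the resident genes, so shares and levels over the cells left are partly set by the filter. Among cells of 3000 to 10000 UMIs, with the limits unchanged, 36.9% of Lyz1-high cells in CD and 7.34% in HFD met the rule. Both were close to the shares over cells of every depth. Of the kept cells, 8.89% in CD and 4.13% in HFD met it, a smaller gap than over every depth. Over all Lyz1-high cells, *Folr2* stood at 290.3 CPM, the UMIs of a gene scaled to a total of 1000000 UMIs, in CD (275.2 to 306.0) and at 60.5 in HFD (53.6 to 68.0). The summed resident genes, a list of 32 without *Folr2*, stood at 15883 CPM in CD and 11547 in HFD in the same cells, a much smaller gap. Measured by that list in place of *Folr2*, 31.4% (27.5 to 35.4) of Lyz1-high cells in CD and 18.2% (15.3 to 21.3) in HFD had over 2% of their UMIs from resident genes, a limit chosen with the data known. *Folr2* was also lower over all kept HFD cells, at 287.9 CPM against 1138 CPM in CD. With 1 library per diet, the diet cannot be told apart from the mice or the preparation.

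*Folr2* was also looked for in cells that should lack it. In the 6 CD cells with at least 10 UMIs of endothelial or erythroid marker genes (median 5696 UMIs a cell), *Folr2* had 1 UMI, or 27.1 CPM (0.686 to 151), and in the 4 such HFD cells (median 2479 UMIs) it had none, which by the exact Poisson interval allows up to 321.6 CPM. *Lyz1* stood at 244.0 and 523.1 CPM in them, and 0 of these cells met either limit of the rule. In the Lyz1-high Folr2+ ATMs, *Folr2* stood at 584.4 CPM in CD and 444.0 in HFD, values set by the rule.

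Lyz1-high Folr2+ ATMs were the deepest of the cells compared. Their median was 9081 UMIs and 2467 genes in CD, against 7027 UMIs and 2018 genes in Lyz1-high Folr2-0 ATMs and 3394 UMIs and 1374 genes in Lyz1-0 Folr2+ ATMs. In HFD the medians were 8101 UMIs and 2250 genes, against 6437 and 1882 and against 2217 and 1028. A threshold of 2 *Folr2* UMIs is met more easily in a deep cell, and 2 cells caught in 1 droplet would also be deep and hold both genes.

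The values that bear on such doublets were as follows. The medians of the cells with 1 gene add up to 10421 UMIs in CD and 8654 in HFD, and 85 of 227 (37.4%) and 18 of 46 (39.1%) of the Lyz1-high Folr2+ ATMs exceeded those sums. In Lyz1-high Folr2-0 ATMs the upper quartile, 10487.5 UMIs in CD and 8697 in HFD, lay above the sums as well. At the other end, 63 CD and 14 HFD Lyz1-high Folr2+ ATMs had no more UMIs than the median Lyz1-high Folr2-0 ATM. When the barcodes with the highest Scrublet scores were removed up to the expected doublet rate, 29 CD (12.8%) and 5 HFD (10.9%) Lyz1-high Folr2+ ATMs went, against 4.74% and 3.07% of all kept cells. For Lyz1-high Folr2-0 ATMs the removed shares were 1.05% and 2.53%, and for Lyz1-0 Folr2+ ATMs 3.84% and 1.16%. Thinned to 2000 UMIs, the cells held a median of 920 genes in CD and 897 in HFD, between the 870 and 871 of Lyz1-high Folr2-0 ATMs and the 953 and 961 of Lyz1-0 Folr2+ ATMs. The highest scores were thus more common among these cells, and how many are doublets was not tested.

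**Figure D2:**
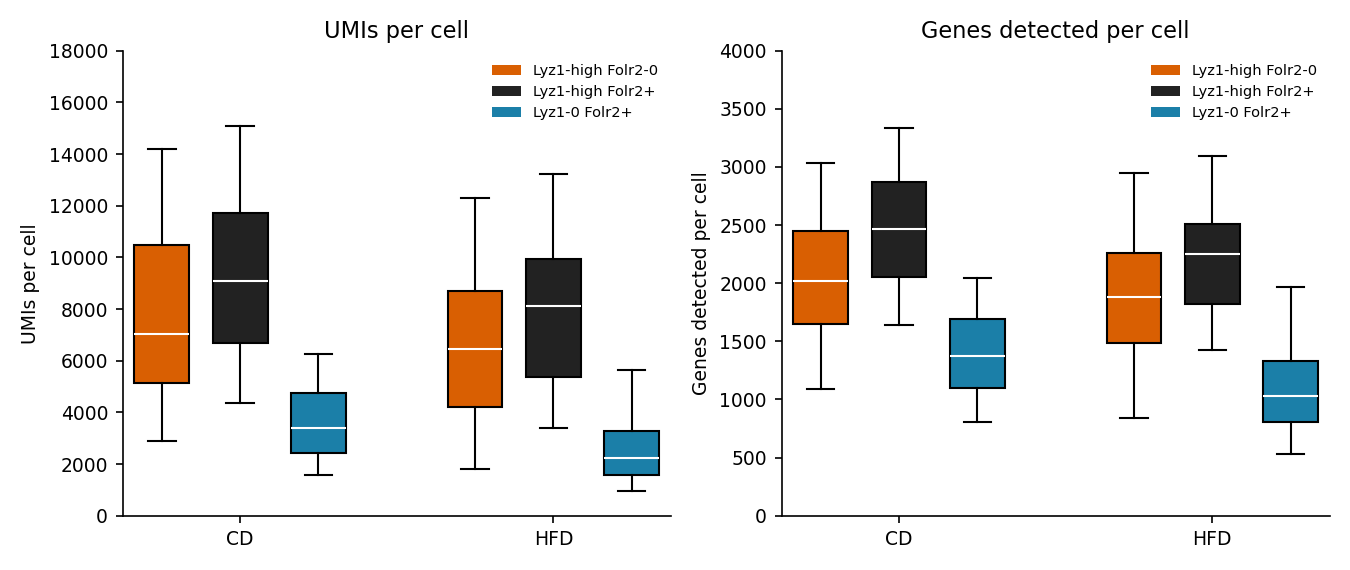
Boxes give the median and quartiles, and whiskers the 5th and 95th percentiles, of UMIs per cell (left) and detected genes per cell (right) for the 3 kinds of ATMs in each library. Lyz1-high Folr2+ ATMs have the highest medians in both libraries, 9081 UMIs in CD and 8101 in HFD, and their boxes overlap those of Lyz1-high Folr2-0 ATMs.

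Against the Lyz1-high Folr2-0 ATMs, the Lyz1-high Folr2+ ATMs held more RNA of resident macrophage genes. Of the 32 resident genes, 29 reached 100 UMIs in CD, and 27 of these were at least 2-fold higher and none 2-fold lower. Among all 3711 genes that reached 100 UMIs there, 2.91% were 2-fold higher and 0.35% lower. In HFD 20 of 22 resident genes were 2-fold higher, where 2.06% of all 3785 genes were higher and 2.38% lower. The median log2 ratio of the list was 1.82 in CD and 1.80 in HFD, and that of all genes 0.04 and -0.05. The list was drawn up with earlier results of these data known, and the cells were chosen for a gene of this kind, so the counts are a description.

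*Lyve1*, a hyaluronan receptor, stood at 24.2 CPM in Lyz1-high Folr2-0, 133.9 in Lyz1-high Folr2+ and 586.1 in Lyz1-0 Folr2+ ATMs of CD, and at 9.10, 96.9 and 477.4 in HFD. *Fcna*, which encodes the pattern-binding protein ficolin A, stood at 39.1, 215.2 and 795.7 CPM in CD and at 39.3, 298.7 and 888.5 in HFD. *Pf4*, the chemokine platelet factor 4, stood at 427.7, 1942 and 5668 CPM in CD and at 491.1, 2416 and 6144 in HFD. All 3 genes were lowest in the first and highest in the last kind of cell in both libraries, and the middle value was several times the first. Against Lyz1-high Folr2-0 ATMs the log2 ratio of *Fcna* was 2.46 (2.07 to 2.88) in CD and 2.92 (2.55 to 3.30) in HFD, and that of *Pf4* 2.18 (2.06 to 2.31) and 2.30 (2.18 to 2.42).

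*Apoe* and *Selenop* followed the same order. *Apoe*, the lipoprotein ligand apolipoprotein E, stood at 1057, 3974 and 15187 CPM in CD and at 1980, 7394 and 18150 in HFD. *Selenop*, a selenium carrier, stood at 519.3, 2021 and 7536 CPM in CD and at 443.8, 2104 and 6487 in HFD. Both were well above the level of Lyz1-high Folr2-0 ATMs, by log2 ratios of 1.91 (1.83 to 1.99) and 1.90 (1.84 to 1.97) for *Apoe* and of 1.96 (1.85 to 2.07) and 2.25 (2.12 to 2.37) for *Selenop*, in CD and HFD.

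The C1q genes stood closer to the level of Lyz1-0 Folr2+ ATMs than *Lyve1* did. *C1qa*, a chain of the first complement component, stood at 926.0 CPM in Lyz1-high Folr2-0, 2909 in Lyz1-high Folr2+ and 5817 in Lyz1-0 Folr2+ ATMs of CD, and at 938.1, 3301 and 4840 in HFD. *C1qb* stood at 1554, 3669 and 5277 CPM in CD and at 1677, 4154 and 5208 in HFD. On a scale from 0, the level in Lyz1-high Folr2-0 ATMs, to 100, the level in Lyz1-0 Folr2+ ATMs, *C1qa* lay at 40.5 in CD and 60.6 in HFD and *C1qb* at 56.8 and 70.2, whereas *Lyve1* lay at 19.5 and 18.7. *Timd4*, the phosphatidylserine receptor of long-lived resident cells, was low throughout, at 18.3 CPM from 39 UMIs in the Lyz1-high Folr2+ ATMs of CD and at 10.8 from 4 UMIs in HFD.

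By the rule for naming, the highest genes in both libraries against Lyz1-high Folr2-0 ATMs were *Fcna*, *Igfbp4*, *Pf4*, *Frmd4b*, *Igf1*, *Fxyd2*, *Selenop*, *Apoe*, *Fcgrt* and *Ednrb*. *Igf1*, a growth factor, stood at 31.0, 129.7 and 478.0 CPM in CD and at 28.5, 148.0 and 315.2 in HFD over the 3 kinds of cells. *Igfbp4*, which binds such growth factors, stood at 55.9, 286.6 and 856.3 CPM and at 39.0, 231.4 and 664.7. In all 52 genes were 2-fold higher in both libraries, of 3490 that could be compared in both, and 3 were 2-fold lower. The 3 lower genes were *Mmp12*, a macrophage elastase, *Fabp5*, a fatty acid binding protein, and *F10*, coagulation factor X. In HFD they had only 10, 5 and 11 UMIs in Lyz1-high Folr2+ ATMs and reached the minimum through the Lyz1-high Folr2-0 ATMs, where they were high. *Mmp12* stood at 100.3, 23.5 and 1.68 CPM in CD and at 162.3, 26.9 and 6.85 in HFD.

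Recruited macrophage genes, by contrast, stood within 2-fold of the level in Lyz1-high Folr2-0 ATMs in most cases. Of 25 such genes 1 in CD and 2 in HFD were 2-fold lower, beside 0.35% and 2.38% of all genes, and none was 2-fold higher, and the list's median log2 ratio was -0.40 and -0.38. Summed over the list, the level was 40153 CPM in Lyz1-high Folr2-0, 31428 in Lyz1-high Folr2+ and 13135 in Lyz1-0 Folr2+ ATMs of CD, and 32443, 24495 and 10758 in HFD. For the resident list the sums were 8235, 24722 and 68352 CPM in CD and 9073, 28994 and 64266 in HFD. By both sums the cells stood between the other kinds. The log2 ratio of the resident sum was 1.59 against Lyz1-high Folr2-0 and -1.47 against Lyz1-0 Folr2+ ATMs in CD, and 1.68 and -1.15 in HFD, so that the nearer kind depends on the scale.

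Against Lyz1-0 Folr2+ ATMs, 19 of the 24 recruited genes that reached 100 UMIs in CD were 2-fold higher and none lower, beside 4.38% higher and 7.86% lower among all 4683 genes. In HFD 11 of 17 were higher and none lower, beside 3.72% higher and 11% lower among 1021 genes. The median log2 ratio of the list was 1.87 in CD and 1.81 in HFD. Resident genes were lower, 29 of 32 in CD and 25 of 31 in HFD, with medians of -1.89 and -1.62, and none was 2-fold higher. All 4 directions are partly set by the choice of cells, since *Lyz1* and *Folr2* are found with these lists.

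*Fn1*, the matrix protein fibronectin, had the highest ratio in both libraries, with 3377 CPM in Lyz1-high Folr2-0, 2565 in Lyz1-high Folr2+ and 125.8 in Lyz1-0 Folr2+ ATMs of CD and 2837, 1883 and 118.8 in HFD. *Ear2*, a ribonuclease, stood at 2032, 1417 and 77.0 CPM in CD and at 2656, 1491 and 130.2 in HFD, and since near-identical relatives exist its reads may be split among them. *Il1b*, the cytokine interleukin-1 beta, stood at 953.0, 757.8 and 136.8 CPM in CD and at 998.3, 874.4 and 182.7 in HFD. Over the cells without other cell types' markers the log2 ratios of *Ear2* and *Fn1* against Lyz1-high Folr2-0 ATMs in CD were 0.04 and 0.10, in place of -0.52 and -0.40. The limits of that filter, given with the shares, apply here too. The cells in the middle held 11.4-fold or more of the *Fn1* and *Ear2* RNA of Lyz1-0 Folr2+ ATMs. The other genes of that rank were *Bcl2a1d*, *Cd52*, *Tmsb10*, *Lsp1*, *Phlda1*, *Ccr2* and *Gm2a*, and 22 genes were 2-fold higher and 84 lower in both libraries of 1021 compared.

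*Ccr2*, the receptor by which monocytes enter tissue, did not fall between the 2 kinds. It stood at 699.1, 866.3 and 249.5 CPM in CD and at 705.3, 785.7 and 221.6 in HFD, so that the Lyz1-high Folr2+ ATMs held the most in both libraries. Against Lyz1-high Folr2-0 ATMs the log2 ratio was 0.31 (0.20 to 0.42) in CD and 0.16 (-0.02 to 0.33) in HFD, an interval that includes 0, and with the lower limits after thinning it was -0.09 in CD. Among the lowest genes against Lyz1-0 Folr2+ ATMs were *Ly6e*, *Ms4a7*, *Rcn3*, *Cd209d*, *Hpgd*, *Ednrb*, *Cd163*, *Ms4a6b* and *Stab1*. In HFD several of them, such as *Ms4a7* with 8 UMIs and *Ly6e* with 11, had few UMIs in Lyz1-high Folr2+ ATMs and reached the minimum through the Lyz1-0 Folr2+ ATMs, where they were high. *Cd163*, the scavenger receptor for haemoglobin, stood at 27.6, 97.7 and 514.6 CPM in CD and at 33.8, 137.2 and 840.6 in HFD. *Ly6e* stood at 56.6, 171.5 and 1242 CPM in CD and at 24.7, 29.6 and 470.5 in HFD, which is next to the Lyz1-high Folr2-0 level in HFD.

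**Figure D3:**
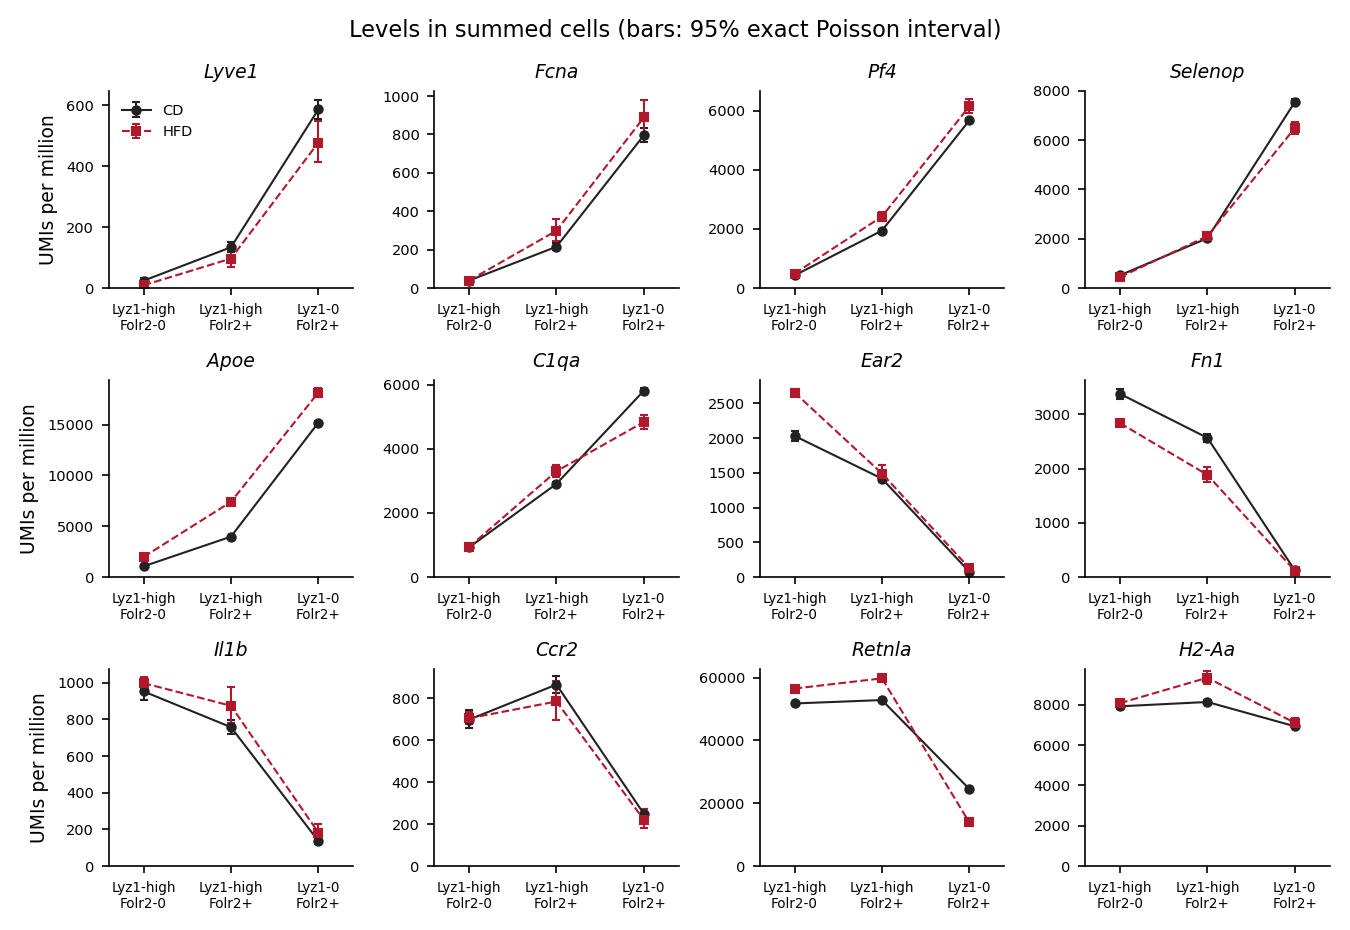
Levels of 12 genes in CPM over the summed cells of the 3 kinds of ATMs, CD as black circles and HFD as red squares, with 95% exact Poisson intervals and linear axes from 0. Resident genes such as Lyve1 (24.2, 133.9 and 586.1 in CD) stand higher from left to right and Ear2, Fn1 and Il1b lower, while Ccr2, Retnla and H2-Aa are highest or level in the Lyz1-high Folr2+ ATMs.

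Taking every gene that differed at least 4-fold between the Lyz1-high Folr2-0 and the Lyz1-0 Folr2+ ATMs, the same scale from 0 to 100 gave the place of the cells between them. In CD the 129 genes higher in Lyz1-high Folr2-0 ATMs had a median place of 33.0 (quartiles 23.0 and 45.2) and the 283 genes higher in Lyz1-0 Folr2+ ATMs one of 21.99 (15.4 and 29.6). In HFD the medians were 39.6 (15.4 and 54.1) over 131 genes and 22.7 (13.9 and 31.5) over 124. In CD 93.8% and 98.9% of the genes, and in HFD 87.0% and 99.2%, lay between the levels of the other cells. Since the genes were chosen for that difference and the cells for both rule genes, lying between is partly set by these choices. With lower limits of 5 *Lyz1* UMIs and 1 *Folr2* UMI the medians were 28.2 and 19.8 in CD and 23.7 and 13.8 in HFD, and with the same limits after thinning to 2000 UMIs 13.4 and 14.0 in CD and 21.3 and 15.2 in HFD. In HFD the genes of Lyz1-high Folr2-0 ATMs lay past the middle, at 50.8, with limits of 20 and 4 UMIs and, at 50.2, in cells of 3000 to 10000 UMIs. Over the 25 CD cells left by the filter on other cell types' markers the genes of Lyz1-0 Folr2+ ATMs had a median place of 6.41. Some of those markers moved with the resident genes, so this place is partly set by the filter. Over the 14 shallow HFD cells the genes of Lyz1-high Folr2-0 ATMs had a median place of 63.5.

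Few genes lay outside both. In CD 1 gene of 5488 (0.0182%) was 2-fold above both kinds of cells and 1 (0.0182%) 2-fold below, *Mucl1* and *Mgp*, which are named after their values were seen. Of the 481 *Mucl1* UMIs, 328 came from 3 cells, and *Mgp* had 3 UMIs in all. In HFD 3 genes of 4202 (0.0714%), among them *Ktn1* and *D10Jhu81e*, were above both and 58 (1.38%) below. Nearly all of the 58 had few UMIs in the 46 cells and reached the minimum through the more numerous Lyz1-high Folr2-0 ATMs, so the 2 counts cannot be compared. *Ktn1* had 21 UMIs in 17 cells and *D10Jhu81e* 19 UMIs in 18 cells. None of these genes was outside both in both libraries, so no gene was 2-fold outside both kinds of cells in CD and HFD at this depth.

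The average hides a wide spread among cells. Resident genes took a median of 2.35% of UMIs in a Lyz1-high Folr2+ ATM of CD, with quartiles of 1.21% and 3.42% and a range from 0.206% to 9.27%. The medians were 0.626% in Lyz1-high Folr2-0 and 6.88% in Lyz1-0 Folr2+ ATMs. Of the 227 cells, 110 (48.5%) lay within the range from the 5th to the 95th percentile of Lyz1-high Folr2-0 ATMs, 40 (17.6%) within that of Lyz1-0 Folr2+ ATMs and 72 (31.7%) in the gap between them. In HFD 27 of 46 (58.7%), 12 (26.1%) and 6 (13.04%) did so, around a median of 2.61%. For the recruited list, 165 CD cells (72.7%) lay within the range of Lyz1-high Folr2-0 and 58 (25.6%) within that of Lyz1-0 Folr2+ ATMs, and in HFD 34 (73.9%) and 13 (28.3%). No single level therefore described these cells.

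**Figure D4:**
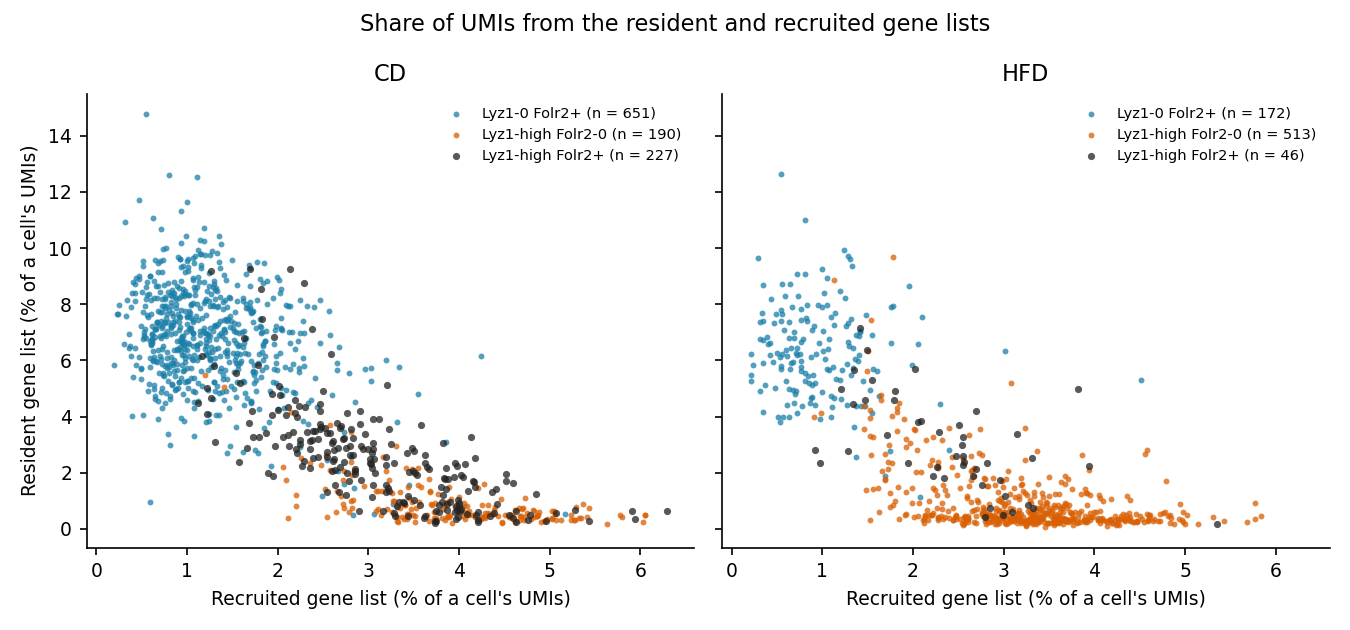
Each point is 1 cell, with the percent of its UMIs from the 25 recruited genes on the x axis and from the 32 resident genes on the y axis, for CD on the left and HFD on the right. The black Lyz1-high Folr2+ ATMs spread along the band that joins the orange and the blue cells, with median resident shares of 2.35% in CD and 2.61% in HFD.

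The cells were also divided by the UMIs of the rule genes, which chose them, so the following is a description. In CD the resident list summed to 14557 CPM in the 113 cells with 2 to 3 *Folr2* UMIs, to 28194 in the 65 with 4 to 7 and to 40470 in the 49 with 8 or more, and *Lyve1* stood at 44.7, 133.9 and 307.7 CPM. Median UMIs were 8035, 8903 and 10738 in these bins. *Ear2* went the other way, with 1833, 1397 and 631.0 CPM, and *Fn1* stood at 3179, 2336 and 1637. *Ccr2* stood at nearly the same level in each, with 885.7, 874.5 and 818.7 CPM. In HFD the 33, 9 and 4 cells of these bins gave resident sums of 25559, 31776 and 46696 CPM, but *Lyve1* stood at 91.8, 169.8 and 0 CPM and *Ear2* at 1572, 1019 and 1792, in no such order.

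By *Lyz1* the order was the reverse in CD, with resident sums of 36489 CPM in the 70 cells with 10 to 19 UMIs, 29319 in the 72 with 20 to 49 and 15083 in the 85 with 50 or more. In HFD the sums were 34021, 26906 and 28797 CPM in 11, 19 and 16 cells, with no steady order. Median UMIs were 7160, 8627 and 11217 over these *Lyz1* bins in CD, so depth and *Lyz1* UMIs moved together, and the deeper cells had the lower sums. The 114 shallower CD cells had a resident sum of 27116 CPM and the 113 deeper ones one of 23419, and in HFD the sums were 34233 and 26278. In the 63 CD cells no deeper than the median Lyz1-high Folr2-0 ATM the sum was 27857 CPM, and in the 14 such HFD cells 29437.

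Just inside the *Folr2* limit, the 72 CD cells with 2 UMIs had a resident sum of 13527 CPM, and just outside, the 138 Lyz1-high cells with 1 UMI had 9386. In HFD the sums were 24922 CPM in 22 cells and 13928 in 113. At the *Lyz1* limit, the 19 CD cells with 10 to 12 UMIs had 45853 CPM and the 24 Folr2+ cells with 7 to 9 had 48665, and in HFD 8 and 6 cells had 38460 and 58560. By resident sums on a linear scale the cells at the *Lyz1* limit thus stood nearer to Lyz1-0 Folr2+ ATMs in both libraries. Those at the *Folr2* limit stood nearer to Lyz1-high Folr2-0 ATMs in both, though in HFD not on a log scale. By recruited sums the cells at the *Lyz1* limit held 22342 CPM in CD and 22488 in HFD, the latter nearer to Lyz1-high Folr2-0 ATMs.

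Other gene groups were compared in the same way. *Retnla*, which encodes the secreted protein RELM alpha and is induced by type 2 cytokines, was the most abundant gene of the alternative activation list, with 51744 CPM in Lyz1-high Folr2-0, 52832 in Lyz1-high Folr2+ and 24529 in Lyz1-0 Folr2+ ATMs of CD and 56493, 59734 and 13906 in HFD. Against Lyz1-high Folr2-0 ATMs its log2 ratios were 0.03 (0.02 to 0.04) and 0.08 (0.06 to 0.10), and their sign changed under several alternatives. Of the 7 genes of this list that reached 100 UMIs in CD, 2 were 2-fold higher than in Lyz1-high Folr2-0 ATMs and 1 lower, and in HFD 2 of 8 were higher and none lower. Among all genes 2.91% were higher and 0.35% lower in CD, and 2.06% and 2.38% in HFD. The lectins *Mgl2*, with 138.7, 420.5 and 1001 CPM in CD and 93.05, 409.0 and 637.3 in HFD, and *Clec10a*, with 111.1, 256.0 and 917.7 and with 115.4, 231.4 and 890.8, followed the resident genes in place of *Retnla*.

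MHC class II genes, which present antigen to T cells, were high everywhere. The 10 genes summed to 51356 CPM in Lyz1-high Folr2-0, 47711 in Lyz1-high Folr2+ and 37151 in Lyz1-0 Folr2+ ATMs of CD and to 55512, 60585 and 41443 in HFD. None of the 8 genes compared was 2-fold higher or lower than in Lyz1-high Folr2-0 ATMs in CD, and in HFD 1 of 8 was lower, beside 2.91% of all genes higher and 0.35% lower in CD and 2.06% and 2.38% in HFD. *H2-Aa* stood at 7928, 8144 and 6936 CPM in CD and at 8086, 9347 and 7108 in HFD, nearly level across the kinds of cells.

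Among 20 macrophage transcription factors, *Maf*, a factor of resident cells, stood at 80.1, 240.5 and 702.7 CPM in CD and at 58.4, 201.8 and 765.2 in HFD. *Bhlhe40* stood at 128.0, 100.5 and 7.99 CPM in CD and at 121.8, 104.9 and 6.85 in HFD, and *Id2* at 261.3, 171.5 and 33.2 and at 318.2, 137.2 and 43.4. *Spi1*, which encodes PU.1, varied little, with 274.8, 308.6 and 345.5 CPM in CD and 327.0, 293.3 and 365.5 in HFD. Both sets of factors were thus present in the summed RNA of these cells. Against Lyz1-high Folr2-0 ATMs 2 of 14 factors compared were 2-fold higher in each library, beside 2.91% and 2.06% of all genes, and 1 was lower in HFD, beside 2.38%.

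Lysosome genes summed to 11420, 13141 and 16479 CPM over the 3 kinds of cells in CD, with 3 of 19 genes 2-fold higher than in Lyz1-high Folr2-0 ATMs, and in HFD 3 of 20 were higher, beside 2.91% and 2.06% of all genes. Among the chemokines, *Ccl7*, which attracts monocytes, stood at 320.6, 925.0 and 1911 CPM in CD and at 253.6, 780.3 and 929.6 in HFD, and *Ccl2* at 752.3, 1065 and 1819 and at 593.8, 998.2 and 1418. Immediate early genes, which tissue digestion can induce, summed to 19931, 23731 and 35337 CPM in CD and to 22863, 26984 and 38931 in HFD. The mitochondrial share of UMIs had medians of 2.33%, 2.84% and 5.09% in CD and 2.07%, 2.21% and 4.60% in HFD. Both measures of cell state moved with the resident genes, and their part in the levels was not tested. Over the cells without other cell types' markers, the immediate early list's median log2 ratio against Lyz1-high Folr2-0 ATMs in CD was -0.15 in place of 0.25.

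Further lists were compared with Lyz1-high Folr2-0 ATMs, against which 2.91% of all genes were 2-fold higher and 0.35% lower in CD and 2.06% and 2.38% in HFD. With so few genes in most of these lists, 1 or 2 genes set the share. Of the heat shock genes 0 of 9 in either library passed 2-fold, and of the ribosomal protein genes 0 of 83. Of the interferon-stimulated genes 1 of 4 was higher in CD and 0 of 3 in HFD, and of the cholesterol efflux genes, led by *Apoe*, 2 of 5 and 2 of 6 were higher, with sums of 6482 against 3150 CPM in CD and 10278 against 4420 in HFD. Lipid-associated macrophage genes summed to 4155, 3399 and 3605 CPM over the 3 kinds of cells in CD and to 5557, 4536 and 7876 in HFD, with 1 of 11 higher and 3 lower in CD and 2 of 11 lower in HFD. Dendritic cell genes summed to 450.5 CPM in CD and 613.5 in HFD, with 1 of 4 genes higher in CD and 2 higher and 1 lower of 4 in HFD. Chemokines showed 2 of 11 genes higher in CD and 1 higher and 1 lower of 10 in HFD. Of the core macrophage genes 1 of 10 and 2 of 10 were higher. Against Lyz1-0 Folr2+ ATMs, ribosomal protein genes had a median log2 ratio of 0.48 in CD and 0.70 in HFD.

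Cell cycle genes were low, with 832.4 CPM over 17 genes in the Lyz1-high Folr2+ ATMs of CD and 511.2 in HFD, and 31 and 1 UMIs of *Mki67*, which marks dividing cells. Monocyte genes summed to 179.0 CPM over 16 genes in CD and 188.3 in HFD. Of these *Ly6c2*, a gene of Ly6C, for which the sort took low or negative cells, had 16 and 0 UMIs and *Chil3* 1 and 0. Core macrophage genes were present, with *Adgre1*, which encodes F4/80, at 226.9 CPM in CD and 185.7 in HFD, *Fcgr1* at 18.3 and 13.5, and *Lyz2* at 15221 and 19120.

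Markers of other cells were low in the summed RNA. Yet only 25 of 227 CD and 11 of 46 HFD Lyz1-high Folr2+ ATMs held no UMI of such markers, the adipocyte and peritoneal macrophage lists not counted. For Lyz1-high Folr2-0 ATMs the counts were 71 of 190 and 283 of 513. For Lyz1-0 Folr2+ ATMs they were 86 of 651 and 49 of 172. In the Lyz1-high Folr2+ ATMs no UMI was found for *Cd3e*, *Ms4a1*, *Cd79a*, *Ly6g*, *Camp*, *Kit* or *Msln* in either library, and the lists of T and NK, mast and mesothelial cells were at 0 CPM. Endothelial genes summed to 4.70 CPM in CD and 5.38 in HFD, eosinophil genes to 6.11 and 0, stromal genes to 9.87 and 0, and adipocyte genes to 31.5 and 13.5. *Cfd* was the most abundant adipocyte gene in CD. The B cell list, 138.1 and 118.4 CPM, was nearly all *Ighm*, with 292 of its UMIs in CD, and the neutrophil list, 101.5 and 158.7 CPM, nearly all *Mmp9*, with 202. In CD these lists summed to 59.9 and 45.1 CPM in Lyz1-high Folr2-0 and to 423.7 and 212.9 in Lyz1-0 Folr2+ ATMs, and thus moved with the resident genes. Stromal genes summed to 4.04 and 263.4 CPM in the same cells, with 493 UMIs of *Dcn* in the latter, and adipocyte genes to 33.7 and 82.9. *Csf3r*, a neutrophil receptor, had 11 and 1 UMIs. Erythroid genes summed to 63.0 and 18.8 CPM, most of it *Hbb-bs*, and peritoneal macrophage genes to 45.6 and 53.8 CPM, with *Gata6* at 0. The peritoneal list stood at 22.9 CPM in Lyz1-high Folr2-0 and 12.2 in Lyz1-0 Folr2+ ATMs of CD and at 170.8 and 27.4 in HFD, where *Saa3* had 241 UMIs in the Lyz1-high Folr2-0 ATMs. Whether RNA of such cells takes part in the levels above was not tested.

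Levels were also compared between the diets within the Lyz1-high Folr2+ ATMs, over 46 HFD and 227 CD cells. Of 2841 genes with at least 100 UMIs in both libraries together, 13 (0.458%) were 2-fold or more higher in HFD and 72 (2.53%) lower, and 7 and 51 kept 1 direction under every alternative tried. Since the CD cells held far more UMIs in all, a gene low in HFD could reach that minimum through CD alone, so the counts in the 2 directions cannot be compared. After thinning to 2000 UMIs with the lower limits, 3 genes were higher and 5 lower. In cells of 3000 to 10000 UMIs the counts were 8 and 37, and without cells holding other cell types' markers 11 and 14. The identity lists had median log2 ratios of 0.02 over 29 resident genes, 3 of them 2-fold lower, and -0.26 over 25 recruited genes, 1 higher and 1 lower, beside -0.08 over all genes. The resident sum was 28994 CPM in HFD against 24722 in CD and the recruited sum 24495 against 31428, and the resident median was below 0 under 4 of the alternatives, at the lowest -0.27 with limits of 5 and 1 UMIs.

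*Plin2*, which coats lipid droplets, stood at 282.3 CPM in CD and 922.9 in HFD, a log2 ratio of 1.71 (1.51 to 1.90), and had UMIs in 193 of 227 and 46 of 46 cells. In Lyz1-high Folr2-0 ATMs the ratio was 1.48 (1.33 to 1.64) and in Lyz1-0 Folr2+ ATMs 2.09 (1.94 to 2.23). *Hspa1a*, the inducible chaperone HSP70, stood at 224.1 and 484.3 CPM, a log2 ratio of 1.11 (0.86 to 1.36), beside 1.02 and 1.14 in the other cells. *Plin2* and *Hspa1a* were thus higher in HFD in each of the 3 kinds of cells.

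*Thbs1*, the matrix protein thrombospondin 1, stood at 23.5 CPM in CD and 217.9 in HFD, a log2 ratio of 3.21 (2.69 to 3.75), but 41 of its 81 HFD UMIs came from 3 cells. *Ccl3*, an inflammatory chemokine, stood at 39.0 and 123.8 CPM, with 27 of 46 HFD UMIs in 3 cells. *Gm10076*, a predicted gene that can share reads with a ribosomal protein gene, had a log2 ratio of 3.62 (3.32 to 3.92), beside 3.70 and 3.26 in the other cells. *Tagap* and *Snx1* completed the higher genes, with 33 and 32 HFD UMIs, of which 16 and 9 came from 3 cells. Single cells weigh heavily in such values, since the HFD library holds few of these ATMs.

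The lower genes by the rule were *Ccl8*, *Ly6e*, *Stmn1*, *Cbr2*, *Camk1d*, *Tmem164*, *Srebf2*, *Klf10*, *Tfe3* and *Rab3d*, each with 13 or fewer UMIs in HFD. *Cbr2*, a carbonyl reductase of resident ATMs, stood at 186.5 CPM in CD and 35.0 in HFD, a log2 ratio of -2.41 (-3.34 to -1.62), beside -2.05 (-2.74 to -1.38) and -1.68 (-1.96 to -1.41) in the other cells. *Ccl8*, a chemokine, stood at 93.5 and 13.5 CPM, with a log2 ratio of -2.80 (-4.44 to -1.55), beside -2.28 and -2.67, and 86 of its 199 CD UMIs came from 3 cells. *Ly6e* had a log2 ratio of -2.53 (-3.55 to -1.68), beside -1.20 and -1.40. *Cbr2*, *Ccl8* and *Ly6e* were thus lower in HFD in the other cells as well. Whether any ratio differs between the kinds of cells was not tested.

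**Figure D5:**
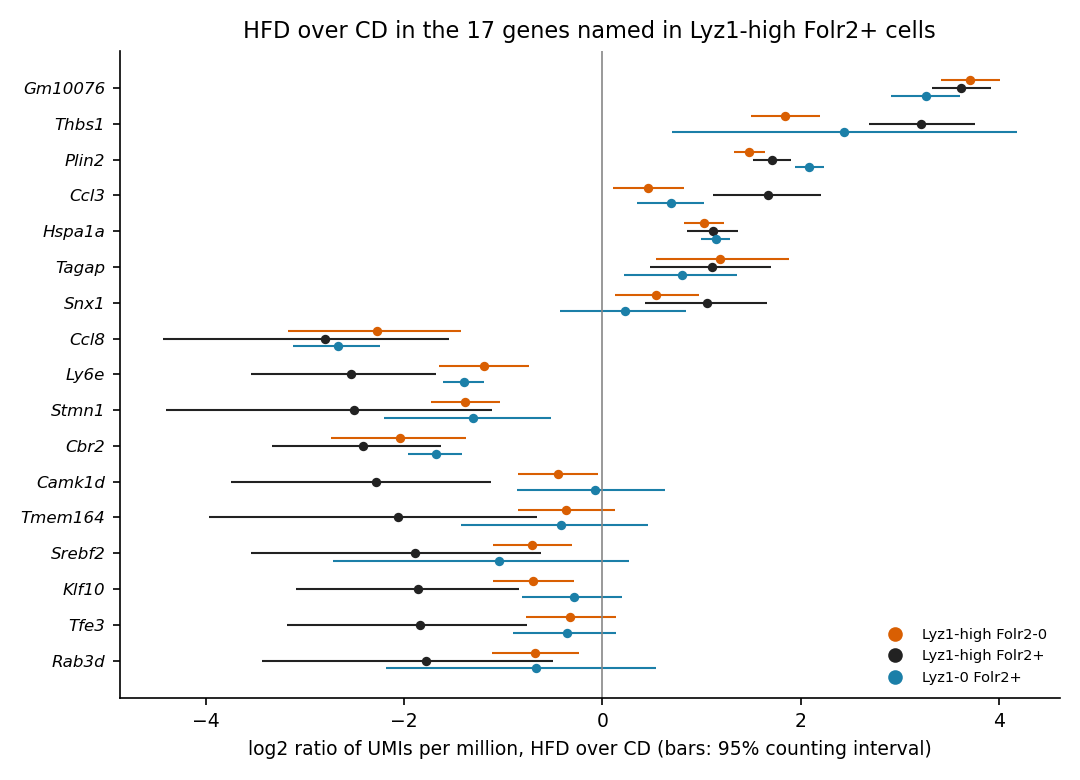
Points give the log2 ratio of CPM, HFD over CD, for the 7 higher and 10 lower genes named in Lyz1-high Folr2+ ATMs (black) beside the same ratio in Lyz1-high Folr2-0 (orange) and Lyz1-0 Folr2+ ATMs (blue), with 95% counting intervals. The black points for Plin2 (1.71) and Hspa1a (1.11) lie near those of the other cells, and the black intervals of the lower genes are wide.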

How the data were processed

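Droplet-based scRNA-seq (10x 3' v2) gave 1 library per diet, each pooled from 3 mice. The deposited values are raw UMI counts, without normalization, for 31053 genes in each barcode. The authors obtained them by aligning to mm10 in Cell Ranger 3.0.2. Values were whole numbers and no column of another sample was used. Members, gene lists and tests were chosen with earlier results of these data known.

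Cells and rule limits are given above. Levels (CPM, from UMIs added over cells) have Poisson intervals computed exactly, ratios have exact conditional binomial intervals and shares Clopper-Pearson intervals, all at 95%. Genes entered a comparison with at least 100 UMIs in the groups compared (for the scale from 0 to 100, in the 3 kinds of cells). *Lyz1* and *Folr2* were left out of lists and counts. Cells are not replicates, so no p-value was computed. PCR duplicates are removed by UMIs, but intervals cover counting error alone.

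Named genes were the 2 rule genes, genes of the 28 lists, and the 10 highest and lowest genes past 2-fold in both libraries (diet: in 1 direction under every alternative), ranked by the smaller size. *Clec7a* of the alternative activation list was not analysed here, and a few genes that meet the naming rules are not reported here. Scrublet's own threshold called 0 CD and 2 HFD barcodes, so 1 alternative took out the 159 CD and 80 HFD barcodes of highest score, on the basis of 0.8% doublets per 1000 barcodes, and otherwise doublets were kept. Of the 18 alternatives, the members at or below the median UMIs of Lyz1-high Folr2-0 cells, like the share among Lyz1-high cells, were added after seeing the data. Python 3.11.15, numpy 2.4.6, scipy 1.17.1, pandas 2.3.3 and scanpy 1.11.5 were used, and scripts were tested on simulated data. Gene positions are from GENCODE vM21 for GRCm38 and promoters from RefSeq.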

Additional observations from a re-analysis of the deposited data

How the results depend on the processing

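All 384 alternative values of the 24 list medians and genes that were 2-fold apart from another kind of cell kept their direction, while none of the 15 list medians and genes followed by diet was 2-fold. The 24 were picked for their size. Their directions are partly set by choosing the cells on *Lyz1* and *Folr2*, as every alternative did. Of the 51 list medians and genes under 2-fold, 28 changed sign under at least 1 alternative, in 81 values in all. Shares, places on the scale from 0 to 100 and counts by diet moved more, and the cause was not tested. In what follows, the first place is that of genes higher in Lyz1-high Folr2-0 ATMs and the second that of genes higher in Lyz1-0 Folr2+ ATMs.

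With a mitochondrial limit of 20%, Lyz1-high Folr2+ ATMs were 6.96% of kept CD and 1.63% of kept HFD cells, and with 5% they were 13.8% and 3.45%, with a second place of 26.5 in HFD. With limits of 5 *Lyz1* UMIs and 1 *Folr2* UMI they were 18.8% and 10.0% of kept and 68.0% and 25.8% of Lyz1-high cells, with places of 28.2 and 19.8 in CD and 23.7 and 13.8 in HFD, and 26 genes were higher by diet. With limits of 20 and 4 UMIs they were 3.21% and 0.495% of kept and 17.6% and 1.80% of Lyz1-high cells, with places of 42.7 and 28.4 in CD and 50.8 and 27.2 in HFD. Thinned to 2000 UMIs they were 7.13% and 5.45% of kept and 31.1% and 10.99% of Lyz1-high cells, with places of 13.4 and 14.0 in CD and 21.3 and 15.2 in HFD, and 3 genes were higher and 5 lower by diet.

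Without the 5% deepest cells the CD share of kept cells was 7.84%, the second place in CD 23.2 and the places in HFD 49.9995 and 26.1. In cells of 3000 to 10000 UMIs the HFD share of kept cells was 4.13%, the second place in CD 26.4 and the places in HFD 50.2 and 32.4, and 8 genes were higher and 37 lower by diet. Without cells holding a UMI of other cell types' markers, which left 25 CD and 11 HFD Lyz1-high Folr2+ ATMs, the shares were 5.61% and 1.20% of kept and 15.9% and 3.15% of Lyz1-high cells, the places 26.4 and 6.41 in CD, the second place in HFD 27.3, and 14 genes were lower by diet. In the members no deeper than the median Lyz1-high Folr2-0 ATM, an alternative added after seeing the data, the places were 39.6 and 29.1 in CD and 63.5 and 35.0 in HFD, and 5 genes were higher and 14 lower by diet.

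The second place in CD was 19.5 without the highest Scrublet scores, 23.8 with *Lyz1*, *Folr2*, *Retnla*, mitochondrial and ribosomal protein genes left out of the total and 27.1 over genes 2-fold apart. Over genes 8-fold apart the places in CD were 39.3 and 18.4 and the second place in HFD 18.6. With a minimum of 50 UMIs 52 genes were higher and 229 lower by diet, and with 300 UMIs 3 and 16, beside a second place of 27.6 in HFD. No paired analysis was possible because each diet has 1 library, and no replicate could be left out. With 46 HFD cells, a gene of a few UMIs has a wide interval.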
